A study of Mus musculus with 12 samples.

Results

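The sodium-potassium ATPase (Na,K-ATPase) genes were followed in RNA-seq of the tibialis anterior (TA), a limb muscle of the mouse, before and after birth. The 7 genes described were chosen by name out of the 55450 genes counted. *Atp1b1*, *Atp1b2*, *Atp1b3* and *Atp1b4* encode beta subunits, and *Fxyd1*, *Fxyd5* and *Fxyd6* encode small FXYD regulators. The rule names the genes by family and sets no threshold on their values. The animals were wild-type mice, labelled as 129Pas background and named 129SvPas in the methods of the study. They were 4 late embryos (E18.5), 4 at 2 weeks and 4 at 7 weeks of age, with 1 library per mouse and no treatment. All mice shared genotype and background, and the sources used here do not give sex or litter. The comparison asks how TA gene expression differs between the last days before birth, the young and the adult muscle.

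The Na,K-ATPase pumps sodium out of the cell and potassium into it at the expense of ATP. In muscle fibres it restores the ion gradients that each action potential runs down, and its loss of activity is associated with fatigue. A catalytic alpha subunit carries the ions. The beta subunit, a glycoprotein that crosses the membrane once, escorts alpha to the cell surface and shapes its affinity for potassium. FXYD proteins attach to the complex in a tissue-specific manner and adjust its affinity for sodium or its maximal rate.

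The windows upstream of *Atp1b4* and *Atp1b1* are shown because these genes had the largest fall and the largest rise among the 7 between E18.5 and 7 weeks. Both run 5′ to 3′ on the strand of the gene, from 250 to 31 bases before the RefSeq start, on build GRCm38.p6. The *Atp1b4* window is chrX:38315872-38316091 (plus strand) and the *Atp1b1* window is chr1:164458386-164458605 (minus strand). Capitals mark each CANNTG, the E-box core that myogenic basic helix-loop-helix factors can bind.
Atp1b4: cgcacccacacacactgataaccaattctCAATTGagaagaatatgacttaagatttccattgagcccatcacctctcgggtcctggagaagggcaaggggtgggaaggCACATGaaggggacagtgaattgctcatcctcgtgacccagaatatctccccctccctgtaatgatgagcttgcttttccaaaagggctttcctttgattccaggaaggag
Atp1b1: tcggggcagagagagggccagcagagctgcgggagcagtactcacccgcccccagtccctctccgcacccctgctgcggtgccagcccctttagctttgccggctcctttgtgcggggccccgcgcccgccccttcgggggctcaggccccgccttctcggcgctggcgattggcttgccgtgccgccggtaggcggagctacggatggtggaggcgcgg
The *Atp1b4* window held 2 CANNTG and 1 CCAAT (counted on both strands) at 49.1% GC. The *Atp1b1* window held 0 CANNTG and 1 CCAAT at 73.2% GC. Of 32851 mouse windows of the same length, 62.1% held a CANNTG and 31% a CCAAT, and the median GC content was 51.8% (quartiles 45.0% and 60.5%). CAGCTG, a form of CANNTG, and a MEF2 motif were in 11.4% and 2.6% of all windows and in neither of these. Entries existed for 6 of the 7 genes, and neither window was linked to a measurement of binding.

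The libraries held between 63018968 and 123449246 counted reads. The 7 genes took between 609 and 330793 counts each per library, which leaves little counting error in the levels of these 7 genes. Levels are given as CPM, counts set to a common library size, after scaling by trimmed mean of M-values (TMM), a method that sets libraries to a common level over most genes. The share of counts held by the top 20 genes was 13.7 to 16.1% at E18.5, 33.2 to 35.6% at 2 weeks and 36.4 to 37.8% at 7 weeks. With total counts in place of TMM, the median log2 change over the 19276 genes tested moved by -0.93 (E18.5 to 2 weeks) and -0.35 (2 to 7 weeks). Marker genes fitted the labelled tissue: the summed level of 7 muscle fibre genes was 8016 to 15767.2 CPM at E18.5, 145990.7 to 179642.9 CPM at 2 weeks and 174289.2 to 197769.5 CPM at 7 weeks, and no marker of any cell type examined was at 0 throughout an age. In whole muscle, fewer cells of a type and less RNA per cell cannot be told apart.

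Between E18.5 and 2 weeks, *Atp1b1*, *Atp1b2*, *Fxyd1* and *Fxyd6* rose and *Atp1b4* fell, while *Atp1b3* and *Fxyd5* did not pass the test. Of the 7 genes 5 thus passed (edgeR quasi-likelihood test, Benjamini-Hochberg adjusted p under 0.05), near the 65.7% of all tested genes that did. The 4 that rose stand beside 31.5% of tested genes called higher, and the 1 that fell beside 34.2% called lower. The same 5 genes had E18.5 and 2-week libraries that did not overlap, beside 61.3% of all tested genes (28.9% with the later age higher and 32.4% lower). From 2 to 7 weeks 1 of the 7 genes passed, *Atp1b1*, beside 27.5% of all tested genes (13.5% higher and 13.9% lower), and 0 had non-overlapping libraries, beside 33.7% (17.3% higher and 16.4% lower). From E18.5 to 7 weeks 6 of the 7 passed, 4 higher and 2 lower, beside 71.4% of all tested genes (34.3% higher and 37.1% lower), and 4 had non-overlapping libraries, 3 higher and 1 lower, beside 63.4% (30.2% higher and 33.3% lower). Over the 7 genes the median log2 change was 0.80, -0.31 and 0.90 in the 3 comparisons, and for all tested genes it was -0.09, -0.03 and -0.09. The 3 comparisons share libraries.

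**Figure D1:**
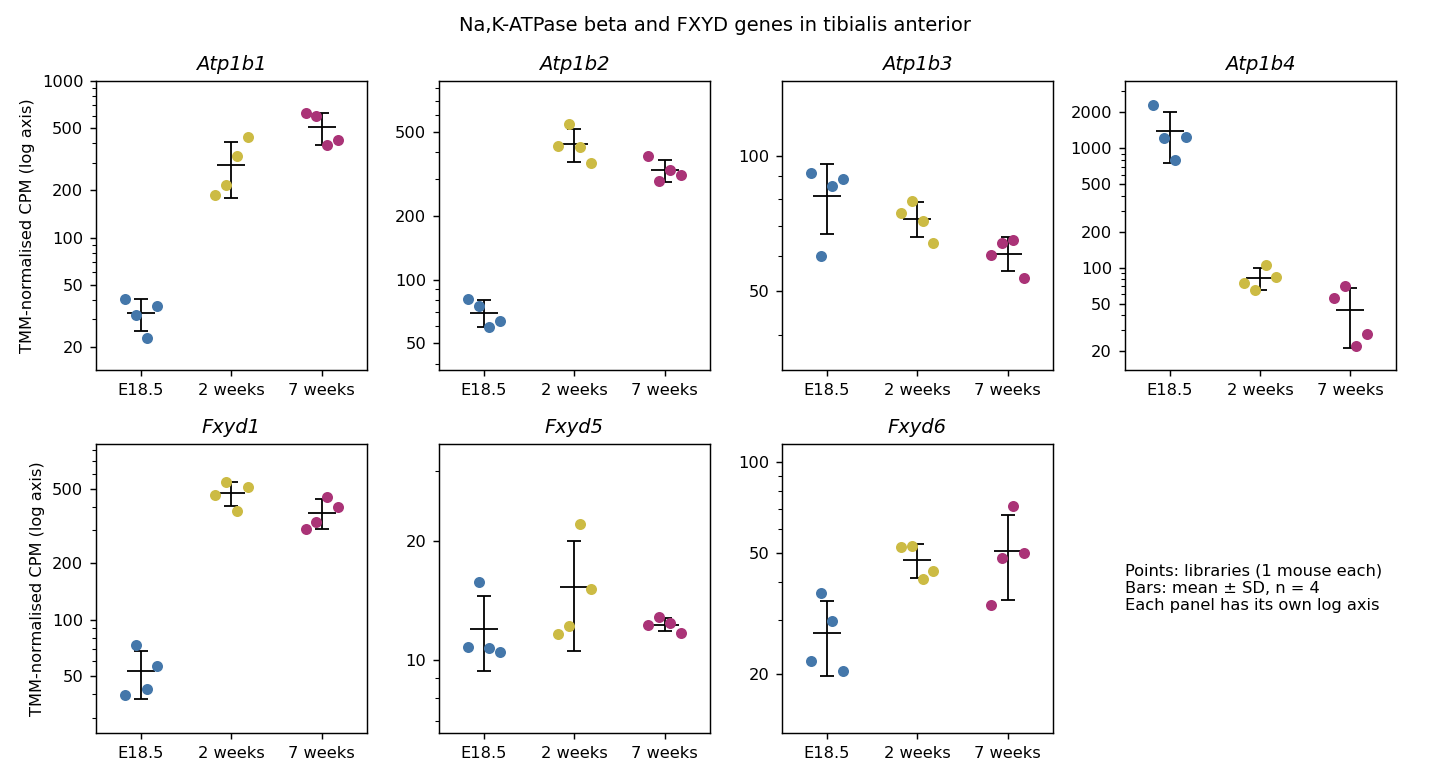
TMM-normalised CPM (log axis, its own in each panel) of the 7 genes by age, with 1 point per library and bars for the mean ± SD (n = 4). *Atp1b4* falls from 806 CPM or more at E18.5 to 106 or less at 2 weeks, *Atp1b1*, *Atp1b2* and *Fxyd1* climb with no overlap over the same interval, and the ages overlap for *Atp1b3* and *Fxyd5*.

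*Atp1b4* encodes the muscle beta subunit beta-m. In placental mammals this protein is known from the inner nuclear membrane of perinatal muscle, where it binds the transcriptional co-regulator SNW1, rather than from pumps at the cell surface. Its E18.5 libraries read 2292, 1213, 806 and 1249 CPM. At 2 weeks they read 75.2, 65.0, 106 and 84.1 CPM. At 7 weeks the values were 56.0, 70.5, 22.2 and 28.1 CPM. All E18.5 libraries lay above all postnatal ones, and the 2- and 7-week libraries overlapped through replicate 2 at 7 weeks. The gene fell by 4.07 on the log2 scale from E18.5 to 2 weeks (SE 0.41, edgeR with Benjamini-Hochberg adjusted p = 2.46e-06) and fell by 4.98 from E18.5 to 7 weeks (SE 0.43, adjusted p = 2.74e-07). The later log2 change of -0.90 (SE 0.37) did not pass (edgeR with Benjamini-Hochberg adjusted p = 0.0835). Without replicate 2 at 7 weeks it was -1.22 and passed (edgeR with Benjamini-Hochberg adjusted p = 0.0371), and it also passed with total counts, DESeq2, the GC or length trend removed and the 8 libraries compared alone (adjusted p between 0.0141 and 0.0465). The gene (ENSMUSG00000016327) lies at chrX:37405026-37425663 on the plus strand of GRCm39.

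*Atp1b1* encodes beta 1, the most widespread beta subunit, which in muscle is associated with slow and oxidative fibres. At E18.5 its libraries read 40.6, 31.9, 22.7 and 36.3 CPM. At 2 weeks they read 187, 218, 332 and 437 CPM. At 7 weeks they read 627, 596, 390 and 421 CPM. The 2-week libraries spread widely, and replicate 4 among them reached into the 7-week range. From E18.5 to 2 weeks the gene rose 8.92-fold (log2 3.16, SE 0.29, edgeR with Benjamini-Hochberg adjusted p = 1.24e-06), and from E18.5 to 7 weeks 15.5-fold (log2 3.95, SE 0.31, adjusted p = 1.01e-07). From 2 to 7 weeks the log2 rise was 0.79 (SE 0.27) with an edgeR Benjamini-Hochberg adjusted p of 0.0438. That late call did not survive the removal of any of 7 of the 12 libraries (E18.5 replicate 4, 2-week replicates 1, 2 and 3, and 7-week replicates 1, 2 and 4), and the log2 change ran from 0.62 to 1.05 over all 12 removals. It did not pass with total counts (log2 0.48, edgeR with Benjamini-Hochberg adjusted p = 0.141), upper-quartile scaling (log2 0.69, adjusted p = 0.068) or at least 10 counts in every library (log2 0.76, adjusted p = 0.0509). The values with total counts and upper-quartile scaling are 0.86 and 0.83 above the median of all genes under those scalings. Of the 16 pairings of a 7-week with a 2-week library, 14 had more at 7 weeks, and the exact permutation p of the 8 libraries, two-sided, was 0.086. The gene (ENSMUSG00000026576) lies at chr1:164264678-164285957 on the minus strand and shares 587 bp of exon with *Nme7* and 290 bp with *Gm32391* on the opposite strand. The libraries were stranded, but the strand setting of the counting is not given in the sources used here.

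*Atp1b2* encodes beta 2, also known as the adhesion molecule on glia, and is associated with fast glycolytic fibres in muscle. At E18.5 its libraries read 80.9, 75.1, 59.7 and 63.7 CPM. At 2 weeks they read 429, 542, 422 and 354 CPM. At 7 weeks they read 384, 291, 329 and 311 CPM. The level was thus highest at 2 weeks in the mean (437 ± 77.7 CPM, SD, n = 4) but the 2 postnatal ages overlapped. From E18.5 to 2 weeks *Atp1b2* rose 6.25-fold (log2 2.64, SE 0.18, edgeR with Benjamini-Hochberg adjusted p = 7.39e-08). The later log2 change of -0.41 (SE 0.17) did not pass (edgeR with Benjamini-Hochberg adjusted p = 0.0812), and at 7 weeks the gene stood 2.23 on the log2 scale above E18.5 (adjusted p = 1.03e-07). The later change passed with total counts (log2 -0.77, edgeR with Benjamini-Hochberg adjusted p = 0.00561), with upper-quartile scaling (log2 -0.52, adjusted p = 0.0379), with the GC trend removed (adjusted p = 0.0414) and with the 8 libraries alone (adjusted p = 0.0458). The values with total counts and upper-quartile scaling are -0.39 and -0.38 from the median of all genes under those scalings. It lies at chr11:69487651-69496851 on the minus strand (ENSMUSG00000041329).

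*Atp1b3* encodes beta 3, a subunit found in many non-muscle cells. At E18.5 its libraries read 91.6, 60.0, 85.6 and 88.9 CPM. At 2 weeks they read 74.6, 79.4, 71.6 and 64.2 CPM. At 7 weeks they read 60.2, 63.9, 65.1 and 53.5 CPM. Each pair of ages overlapped: E18.5 replicate 2 lay among the 7-week libraries and below all 2-week libraries, and 2-week replicate 4 lay below 7-week replicate 3. Neither step passed the edgeR test with Benjamini-Hochberg adjustment (log2 -0.17, SE 0.15, adjusted p = 0.326, then -0.26, SE 0.15, adjusted p = 0.218). Over the whole span *Atp1b3* fell by 0.43 (SE 0.15, edgeR with Benjamini-Hochberg adjusted p = 0.0194). The call was lost without E18.5 replicate 4 (log2 -0.38, adjusted p = 0.0519) or without 7-week replicate 4 (log2 -0.36, adjusted p = 0.0694). With the GC trend removed the step to 2 weeks passed (log2 -0.66, edgeR with Benjamini-Hochberg adjusted p = 0.00433). With total counts it was -1.09 (adjusted p = 3.49e-05), which is -0.07 from the median of all genes under that scaling. The gene lies at chr9:96214674-96246814 on the minus strand (ENSMUSG00000032412).

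The make-up of the beta group turned over between E18.5 and 2 weeks. To compare the genes with each other, counts were divided by the merged exon length in kb and expressed as a share of the beta sum, which no scaling of libraries can alter. *Atp1b4* made up 81.0 ± 5.34% of the beta sum at E18.5 (SD, n = 4), 7.31 ± 1.33% at 2 weeks and 3.35 ± 1.34% at 7 weeks. *Atp1b1* made up 2.99 ± 0.502%, 37.3 ± 11.3% and 58.4 ± 4.47% at the same ages. *Atp1b2* made up 4.71 ± 1.16%, 41.5 ± 9.34% and 27.9 ± 4.39%. In words, *Atp1b4* led in each E18.5 library, *Atp1b1* led in each 7-week library, and at 2 weeks *Atp1b2* led in replicates 1 and 2 and *Atp1b1* in replicates 3 and 4. With the length of the canonical transcript in place of merged exons, *Atp1b2* led in replicate 3 too (42.7% beside 39.0% for *Atp1b1*). *Atp1b3* kept between 7.42 and 16.8% in all 12 libraries. The shares of *Atp1b1*, *Atp1b2* and *Atp1b4* differed between E18.5 and each later age in exact permutation tests, two-sided (p = 0.029, the lowest value 4 against 4 can give, and 0.043 after Benjamini-Hochberg adjustment over the beta genes times 3 age pairs). From 2 to 7 weeks the *Atp1b1* share rose by 21.0 percentage points and that of *Atp1b4* fell by 3.96 points, each with the same exact permutation p of 0.029 and adjusted p of 0.043. The *Atp1b2* share differed by -13.6 points over that interval, which did not pass (exact permutation p = 0.057, adjusted p = 0.076).

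**Figure D2:**
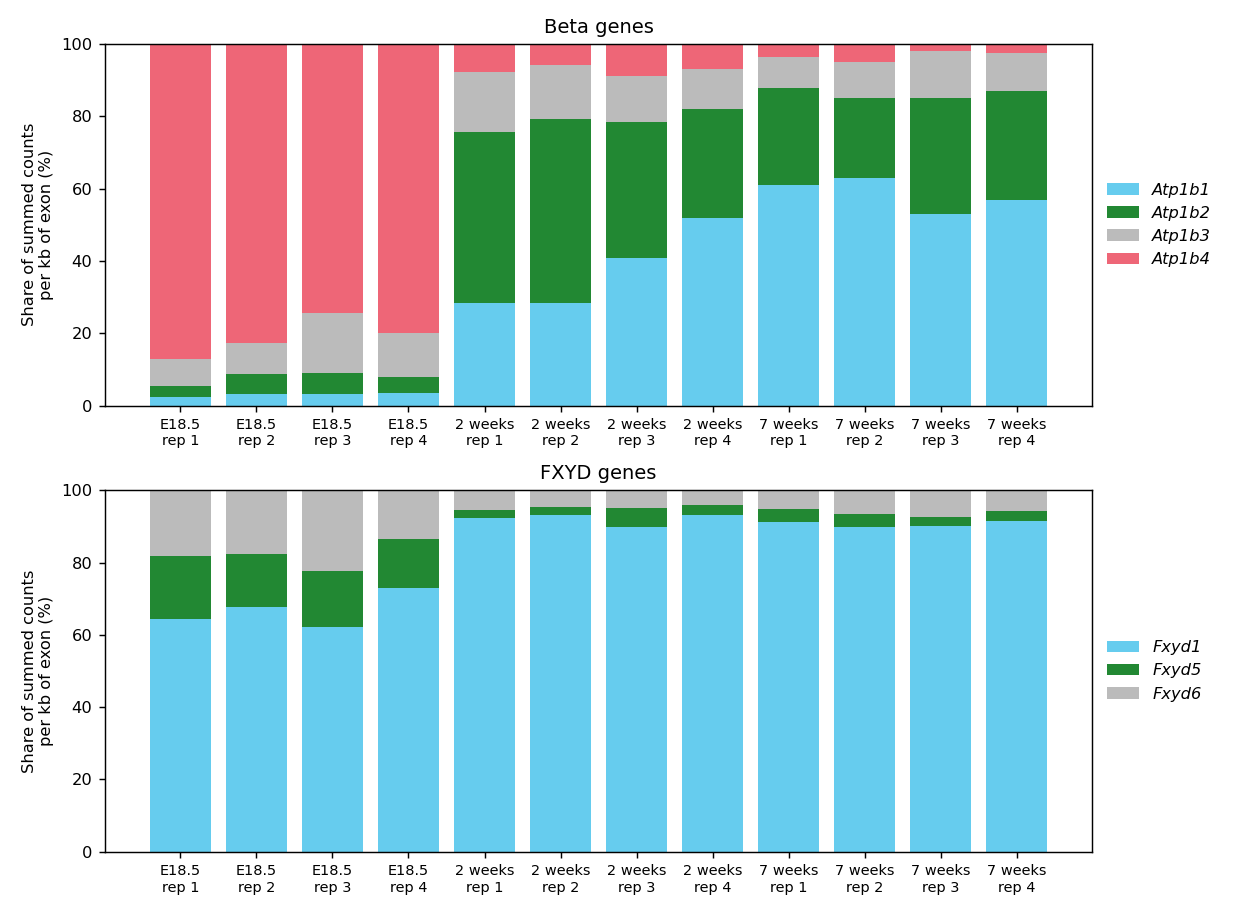
Share of each gene in the summed counts per kb of exon (%), for the beta genes (top) and the FXYD genes (bottom), with 1 stacked bar per library. *Atp1b4* fills 74.3 to 87.1% of the E18.5 bars and at most 8.86% of any later bar, and *Fxyd1* passes from 62.2 to 73.0% at E18.5 to between 89.85 and 93.27% in the later libraries.

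Because beta-m is not known as a pump subunit in mammals, the shares were also taken over the other 3 beta genes, a choice made after the data were seen. At E18.5 *Atp1b3* was then the largest, at 58.5 ± 6.41% of the sum (SD, n = 4), with *Atp1b2* at 25.2 ± 4.29% and *Atp1b1* at 16.2 ± 2.93%. At 2 weeks *Atp1b3* was the smallest in the mean, at 14.9 ± 2.59%, beside *Atp1b2* at 44.8 ± 9.82% and *Atp1b1* at 40.3 ± 12.2%. At 7 weeks *Atp1b1* held 60.4 ± 5.44%, *Atp1b2* 28.8 ± 4.17% and *Atp1b3* 10.7 ± 1.77%. The 3 shares each separated E18.5 from 2 weeks with no overlap (exact permutation p = 0.029, and 0.051 after Benjamini-Hochberg adjustment over 9 tests, so none passed the adjustment).

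The balance of *Atp1b2* and *Atp1b1* differed between mice at 2 weeks. Their log2 ratio of counts within a library was 1.0, 1.23, 1.40 and 0.81 at E18.5. At 2 weeks it was 1.20, 1.31, 0.35 and -0.30. At 7 weeks it was -0.71, -1.03, -0.24 and -0.44. Replicates 1 and 2 at 2 weeks lay within the E18.5 range, replicate 4 lay within the 7-week range and replicate 3 between them. The mean difference was -0.47 from E18.5 to 2 weeks (exact permutation p = 0.31, adjusted 0.34) and -1.25 from 2 to 7 weeks (exact permutation p = 0.057, adjusted 0.069), so neither step passed, whereas the difference of -1.72 from E18.5 to 7 weeks did (exact permutation p = 0.029, adjusted 0.043 over 12 tests of ratios). Replicate 4 at 2 weeks also stood apart in *Myh2*, the myosin heavy chain of type IIA fibres, with 4972 CPM beside 690, 936 and 912 CPM in the other 2-week libraries. *Myh7*, the myosin heavy chain of slow fibres, was lowest there, at 39.5, 9.72, 7.90 and 4.44 CPM in 2-week replicates 1 to 4. At 7 weeks *Myh2* read 1925, 4454, 3396 and 2014 CPM in replicates 1 to 4, which did not follow the order of the ratio. *Myh2* and *Myh7* were looked at in addition to the marker lists, and the part of fibre type in these values was not tested. The log2 ratio of *Atp1b1* to *Atp1b4* averaged -5.33 at E18.5, 1.77 at 2 weeks and 3.65 at 7 weeks, with no overlap at any step (exact permutation p = 0.029, adjusted 0.043, for each).

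**Figure D3:**
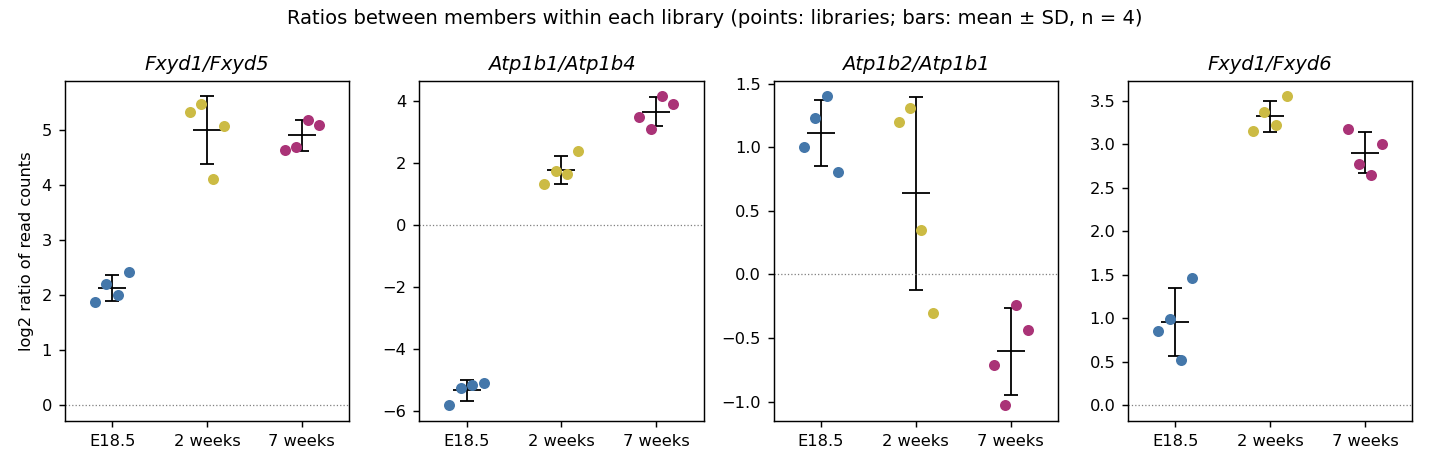
Log2 ratio of read counts of 4 gene pairs within each library, by age, with 1 point per library and bars for the mean ± SD (n = 4). *Atp1b1*/*Atp1b4* climbs at both steps, *Fxyd1*/*Fxyd5* and *Fxyd1*/*Fxyd6* climb before 2 weeks, and *Atp1b2*/*Atp1b1* spreads from -0.30 to 1.31 at 2 weeks.

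Among the FXYD genes *Fxyd1* had the largest log2 change before 2 weeks. It encodes phospholemman, the main FXYD protein of heart and skeletal muscle and a target of protein kinases A and C. At E18.5 its libraries read 39.8, 72.9, 42.8 and 56.4 CPM. The 2-week libraries read 464, 542, 381 and 510 CPM. The 7-week libraries read 305, 331, 451 and 399 CPM. All postnatal libraries lay above all E18.5 libraries, and the postnatal ages overlapped. *Fxyd1* rose 8.96-fold from E18.5 to 2 weeks (log2 3.16, SE 0.22, edgeR with Benjamini-Hochberg adjusted p = 1.31e-07). With the GC trend across genes removed the log2 rise was 2.08 (adjusted p = 2.22e-07), the transcript being the most GC-rich of the 7 at 57.5%. The later log2 change of -0.35 (SE 0.21) did not pass (edgeR with Benjamini-Hochberg adjusted p = 0.224), and 7 weeks stood 2.81 above E18.5 on the log2 scale (adjusted p = 1.22e-07). The gene lies at chr7:30751092-30756677 on the minus strand (ENSMUSG00000036570).

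*Fxyd5* encodes dysadherin, a regulator known from epithelia and for its effect on cell adhesion. At E18.5 its libraries read 10.8, 15.7, 10.7 and 10.4 CPM. The 2-week values were 11.6, 12.2, 21.97 and 15.1 CPM. The 7-week values were 12.2, 12.8, 12.4 and 11.7 CPM. The ages overlapped, and replicate 2 at E18.5 and replicate 3 at 2 weeks were the high libraries. The log2 changes were 0.35 (SE 0.20) to 2 weeks and -0.31 afterwards, and neither passed (edgeR with Benjamini-Hochberg adjusted p = 0.141 and 0.276). Without E18.5 replicate 2 the first was 0.52 and passed (edgeR with Benjamini-Hochberg adjusted p = 0.0349). With total counts it was -0.59 (edgeR with Benjamini-Hochberg adjusted p = 0.0114), which is 0.43 above the median of all genes under that scaling. E18.5 replicate 2 also had the highest summed level of 7 fibroblast and tendon markers (8776 CPM, E18.5 range 4540 to 8776). It was likewise the highest E18.5 library for muscle fibre (15767.2 CPM), smooth muscle and pericyte (527.6), Schwann cell (245.4) and satellite cell markers (32.55). It was not the highest for endothelial, white blood cell, red blood cell or adipocyte markers. The epithelial keratin genes *Krt5* and *Krt14*, looked at in addition to the marker lists, were also highest there at E18.5 (4.385 and 2.074 CPM). The next highest E18.5 values were 0.6922 and 0.3412 CPM. Replicate 3 at 2 weeks had 4291 CPM of fibroblast and tendon markers, within the 2-week range of 3230 to 4749. It had 0.0 CPM of *Krt5* and 0.01369 CPM of *Krt14*. The part of these cell types in the *Fxyd5* values was not tested. *Fxyd5* lies beside *Fxyd1* at chr7:30732147-30741906, on the minus strand (ENSMUSG00000009687), and its exons contain 60 bp of *Mir7050*.

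*Fxyd6* encodes phosphohippolin, a regulator best known from brain. At E18.5 its libraries read 21.98, 36.8, 29.9 and 20.4 CPM. Those at 2 weeks read 52.5, 52.6, 41.0 and 43.5 CPM. Those at 7 weeks read 33.6, 48.1, 71.7 and 50.0 CPM. The E18.5 and 2-week libraries did not overlap, and replicate 1 at 7 weeks fell within the E18.5 range. The gene rose 1.74-fold to 2 weeks (log2 0.80, SE 0.23, edgeR with Benjamini-Hochberg adjusted p = 0.00749) and stood 0.90 above E18.5 at 7 weeks (SE 0.23, adjusted p = 0.00304). The first call was lost with the GC trend removed (log2 0.38, edgeR with Benjamini-Hochberg adjusted p = 0.111), and with total counts the value turned to -0.13 (adjusted p = 0.644), which is 0.89 above the median of all genes under that scaling. The gene lies at chr9:45281302-45307457 on the plus strand (ENSMUSG00000066705).

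Per kb of exon, *Fxyd1* made up 66.9 ± 4.72% of the sum of the 3 FXYD genes at E18.5 (SD, n = 4), 92.2 ± 1.58% at 2 weeks and 90.7 ± 0.777% at 7 weeks. The *Fxyd5* share was 15.3 ± 1.66%, 3.08 ± 1.42% and 3.06 ± 0.579%. The *Fxyd6* share was 17.9 ± 3.58%, 4.75 ± 0.541% and 6.26 ± 0.957%. All 3 shares separated E18.5 from either later age (exact permutation p = 0.029, adjusted 0.043 over the FXYD genes times 3 age pairs), and none of the 3 passed between 2 and 7 weeks, where *Fxyd6* differed by 1.51 points (exact permutation p = 0.057, adjusted 0.073). Within libraries the log2 ratio of *Fxyd1* to *Fxyd5* averaged 2.13, 5.0 and 4.91 at the 3 ages.

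The timing of the change was tested as the log2 change before 2 weeks minus that after 2 weeks. It was 3.52 for *Fxyd1* (edgeR with Benjamini-Hochberg adjusted p = 1.15e-05), 3.05 for *Atp1b2* (adjusted p = 6.37e-06), 2.36 for *Atp1b1* (adjusted p = 0.00167) and -3.17 for *Atp1b4* (adjusted p = 0.0032). These 4 of 7 genes stand beside 38.4% of all tested genes (21.6% above 0 and 16.8% below). For *Atp1b1* and *Atp1b4* the fitted changes before and after 2 weeks had the same sign, and the earlier one was the larger. For *Atp1b2* and *Fxyd1* they had opposite signs, so that the value is the sum of both sizes and does not compare them. Without 2-week replicates 1 and 4 together, the *Atp1b4* value of -3.02 no longer passed (edgeR with Benjamini-Hochberg adjusted p = 0.0663). The values for *Atp1b3* (0.09), *Fxyd5* (0.67) and *Fxyd6* (0.70) did not pass (edgeR with Benjamini-Hochberg adjusted p = 0.814, 0.146 and 0.174).

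**Figure D4:**
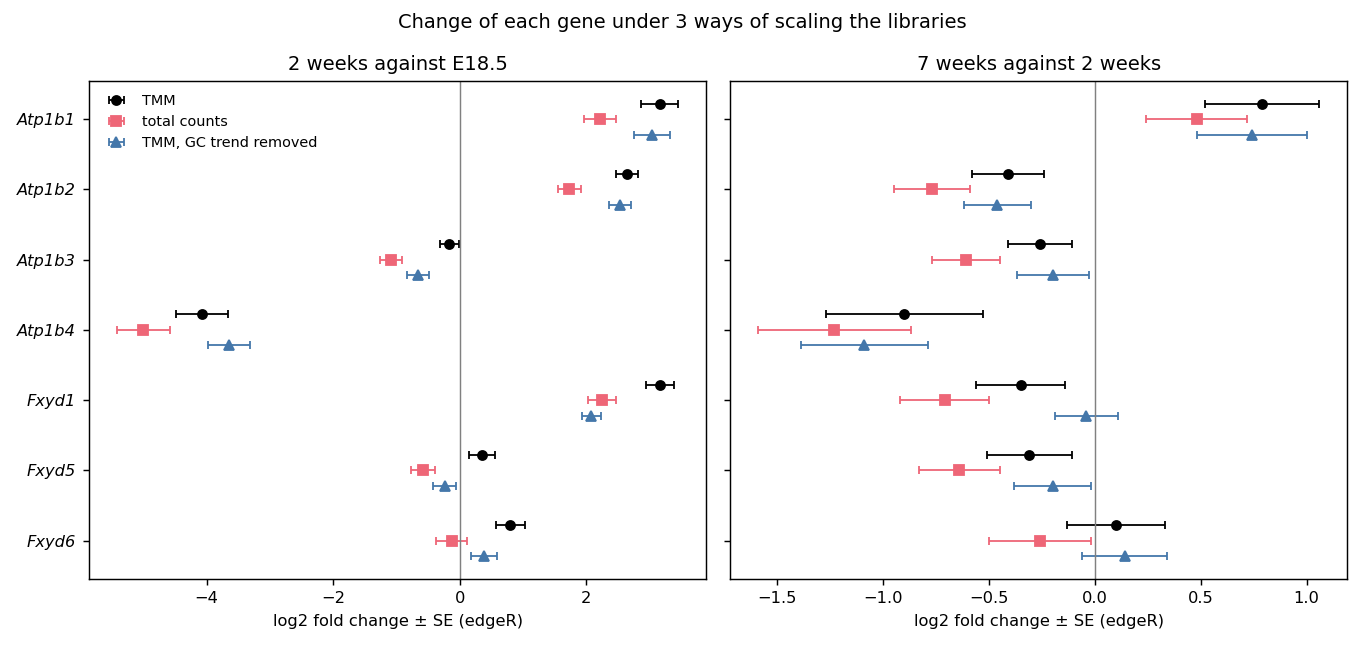
Log2 fold change ± SE from edgeR for 2 weeks against E18.5 (left) and 7 weeks against 2 weeks (right), under TMM (black circles), total counts (red squares) and TMM with the GC trend removed (blue triangles). *Atp1b1*, *Atp1b2*, *Fxyd1* and *Atp1b4* keep their direction at the first step under all 3, whereas *Fxyd5* runs from -0.59 to 0.35 and *Fxyd6* from -0.13 to 0.80.

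Genes related to the pump changed in both directions. Of 11 further family genes (other FXYD genes, H,K-ATPase subunits and the *Nkain* genes, whose products bind the beta subunit), 6 were expressed highly enough to test. From E18.5 to 2 weeks 3 of them rose, *Nkain1* (log2 3.04), *Fxyd7* (log2 2.64) and *Fxyd2* (log2 2.19), and *Nkain2* fell by 1.14, so that 4 of 6 passed beside 65.7% of all tested genes. Their levels were low. The means at E18.5 and 2 weeks were 1.35 and 11.1 CPM for *Nkain1* and 0.246 and 1.54 CPM for *Fxyd7*. For *Fxyd2* they were 0.36 and 1.64 CPM, and for *Nkain2* 1.84 and 0.838 CPM. From 2 to 7 weeks 0 of the 6 passed in edgeR, 2 had an unadjusted p under 0.05, and DESeq2 called 1 lower. Other settings in edgeR called *Fxyd7* lower (total counts, log2 -1.30, upper-quartile scaling, -1.03, and length trend removed, -0.82), *Nkain4* lower (total counts, -1.33) or *Nkain1* higher (GC trend removed, 0.51). The medians were 0.99 and -0.56, beside -0.09 and -0.03 for all tested genes.

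Of 18 carriers and pumps that use or share the sodium and potassium gradients, 6 rose and 4 fell from E18.5 to 2 weeks, and 5 rose and 3 fell from 2 to 7 weeks (edgeR, Benjamini-Hochberg adjusted p under 0.05). Of all tested genes 31.5% rose and 34.2% fell in the first interval, and 13.5% rose and 13.9% fell in the second. With total counts the list's first split was 2 higher and 10 lower, beside 2552 higher and 11917 lower of all 19276 genes, and the second 3 higher and 5 lower, beside 948 higher and 5391 lower. The largest early rise was in *Slc8a3*, a sodium-calcium exchanger of muscle (log2 2.61), followed by *Slc20a2*, a sodium-phosphate carrier (log2 1.35). The largest early falls were in *Slc4a4*, a sodium-bicarbonate carrier (log2 -2.56), *Slc5a3*, a sodium-inositol carrier (log2 -1.39), and *Atp2b4*, a plasma membrane calcium pump (log2 -0.77). *Slc4a4* then rose by 1.61 on the log2 scale after 2 weeks, the sodium-calcium exchanger *Slc8a1* by 1.35 and the sodium-potassium-chloride carrier *Slc12a2* by 1.13. The late falls were *Slc8a2* (log2 -1.01), *Slc12a4* (log2 -0.80) and *Atp2b4* (log2 -0.52). The list medians were 0.25 and 0.20.

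Of 11 partners and kinases of the pump, of beta-m and of phospholemman, 4 rose and 3 fell before 2 weeks (3 higher and 6 lower with total counts), and 7 rose and 1 fell after it (1 higher and 2 lower with total counts). With TMM these stand beside the same shares of all tested genes, 31.5% higher and 34.2% lower, then 13.5% higher and 13.9% lower. With total counts, 2552 of 19276 genes were higher and 11917 lower in the first interval, and 948 higher and 5391 lower in the second. *Sgk1*, a kinase that raises sodium transport (log2 3.29), *Ppp1r1a*, a protein phosphatase inhibitor (log2 2.10), and *Smad3* (log2 1.96) led the early rises. *Smad2* (log2 -1.47), *Prkaca*, the catalytic subunit of protein kinase A (log2 -1.22), and *Ank2*, an ankyrin (log2 -1.15), were the early falls. After 2 weeks the leading rises were *Smad3* (log2 0.96), *Prkca*, a protein kinase C (log2 0.86), and *Nedd4l*, a ubiquitin ligase (log2 0.72), and *Ppp1r1a* fell by 0.73 on the log2 scale. *Snw1*, the partner of beta-m, had a log2 change of -0.07 before 2 weeks (edgeR with Benjamini-Hochberg adjusted p = 0.638). The value was -1.0 and called with total counts, where the median of all tested genes was -1.02. With the GC trend removed it was 0.36 and called, beside a median of -0.24. After 2 weeks *Snw1* rose by 0.50 (edgeR with Benjamini-Hochberg adjusted p = 0.0127). That call was lost with total counts (log2 0.14, beside a median of -0.38). The list medians were 0.18 and 0.50.

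Over the 12 libraries, the genes whose log2 CPM was most like each member were found among 11887 genes, as a description with no test, and age differences alone can give such values. *Atp1b4* was most like *Nav3* (Pearson r = 0.997), *Csnk1g3* (0.993) and *Zscan18* (0.992). *Atp1b1* was most like *Kcnc1* (r = 0.995), *Abcb4* (0.995) and *Mreg* (0.994). *Atp1b2* was most like *Casq1* (r = 0.993), which encodes the calcium store protein of fast fibres, *Myl1* (0.991), which encodes a fast myosin light chain, and *Frat2* (0.990). *Fxyd1* was most like *Tmem52* (r = 0.997), *Rab3a* (0.995) and *Tmem25* (0.994). The closest genes were less alike for *Fxyd6* (*Pqbp1*, r = 0.955, *Rnps1-ps*, 0.955, and *Eif3g*, 0.954), *Atp1b3* (*Timm8a1*, r = 0.904, *Fam241a*, 0.904, and *Uimc1*, 0.902) and *Fxyd5* (*S100a6*, r = 0.853, *St6galnac4*, 0.817, and *Col11a2*, 0.812).

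Markers of other cells moved with age as well. The summed level of 7 fibroblast and tendon markers was 4540 to 8776 CPM at E18.5, 3230 to 4749 at 2 weeks and 787.5 to 2822 at 7 weeks. That of 6 Schwann cell markers was 146.6 to 245.4 CPM, 136.4 to 638.6 CPM (highest in replicate 1) and 103.7 to 156.9 CPM. That of 4 adipocyte markers was 10.3 to 364.6 CPM at E18.5 (high in replicates 3 and 4), 1.802 to 7.037 at 2 weeks and 1.665 to 4.332 at 7 weeks. The sums of 5 endothelial markers (340.4 to 484.3 CPM, then 726.3 to 886.3, then 440.6 to 741.7) and of 4 smooth muscle and pericyte markers (345.4 to 527.6 CPM, then 906.4 to 1479, then 785.5 to 985.5) were higher at 2 weeks than at E18.5 with no overlap, as were *Atp1b1*, *Atp1b2*, *Fxyd1* and *Fxyd6*. The sums of white blood cell (40.22 to 65.26 CPM, then 27.17 to 37.67, then 10.93 to 28.62) and satellite cell markers (18.71 to 32.55 CPM, then 10.49 to 16.65, then 5.85 to 9.33) were lower at 2 weeks with no overlap, as was *Atp1b4*. Single genes of these lists differed. Of the 5 white blood cell genes, edgeR called *Ptprc* lower (log2 -1.98) and *Cd3e* higher (log2 1.73) at 2 weeks, and called no other. Of the 3 satellite cell genes, *Pax7* (log2 -0.55) and *Myf5* (log2 -1.81) were called lower and *Calcr* (log2 0.03) was not. Of the 5 endothelial genes 3 were called higher and 0 lower, and of the 4 smooth muscle and pericyte genes 2 and 0. The adipocyte sum was also lower at 2 weeks with no overlap, and all 4 of its genes were called lower (log2 -5.99 to -3.55). The sum of 7 muscle fibre markers (8016 to 15767.2 CPM, then 145990.7 to 179642.9) was higher at 2 weeks with no overlap, and all 7 genes were called higher. The sums of red blood cell markers were 241.3 to 1025 CPM, 145.5 to 755.1 and 91.86 to 129.6. The part of these cell types in the values of the 7 genes was not tested. A removal of 2-week replicates 1 and 4 together was chosen after the data were seen. Without them the log2 changes to 2 weeks were 3.10 for *Atp1b1*, 2.83 for *Atp1b2*, -3.99 for *Atp1b4*, 3.17 for *Fxyd1* and 0.82 for *Fxyd6*, each still past the threshold (edgeR with Benjamini-Hochberg adjusted p between 1.57e-06 and 0.0354).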

How the data were processed

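RNA from TA pieces of 12 mice was made into stranded polyA libraries and sequenced as paired ends by the authors, whose processing notes name bcl2fastq 2.17.1.14, cutadapt 1.10, STAR 2.5.3a, HTSeq 0.6.1p1 and build mm10, whereas the methods of the study name GRCm39. The authors deposited 1 table of raw read counts per gene and library. Of its 55450 identifiers, 51477 matched GENCODE vM39, which gave symbols, lengths and coordinates on GRCm39. The alpha genes and 1 gene of the carrier list are not reported here by name. Promoter windows came from RefSeq (GRCm38.p6). The members and the gene lists were chosen with earlier results of these data known.

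Genes were filtered with filterByExpr (19276 kept, all 7 members among them) and fitted in edgeR 4.0.16 (quasi-likelihood, R 4.3.3) over the 3 ages together after TMM scaling, with Benjamini-Hochberg adjustment over all tested genes and a threshold of 0.05. The biological coefficient of variation was 0.279. CPM, shares and ratios were computed in Python 3.11.15. Shares and ratios were compared by two-sided exact permutation tests over libraries. The scripts were tested on simulated data. Depth was 63018968 to 123449246 counts. Each library is a separate mouse, so p-values reflect the spread between mice of one background. Library pairs of the same age differed by more than counting noise (chi-square per degree of freedom 31.2 to 524). Genes named from the lists were the 3 largest rises and 3 largest falls past the threshold per list and interval, and those most like a member were taken among genes of mean log2 CPM of at least 1. Alternatives were other scalings, filters, DESeq2 1.42.0, GC and length correction, and removal of libraries.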

Additional observations from a re-analysis of the deposited data

Results flagged for a closer look

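*Fxyd5* at E18.5 held 1 library far from the other 3: replicate 2 read 15.74 CPM and the others 10.44 to 10.78 CPM. Of 54 sets of 4 libraries examined in this way it was the only one past Dixon's limit, where chance would give about 2.7.

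For 4 genes the log2 change before 2 weeks differed from that after 2 weeks in an edgeR contrast with Benjamini-Hochberg adjustment. The difference was 2.36 for *Atp1b1* (adjusted p = 0.00167), 3.05 for *Atp1b2* (adjusted p = 6.37e-06), -3.17 for *Atp1b4* (adjusted p = 0.0032) and 3.52 for *Fxyd1* (adjusted p = 1.15e-05).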

How the results depend on the processing

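The early and whole-span calls of *Atp1b1*, *Atp1b2*, *Atp1b4* and *Fxyd1* kept their direction and stayed past the threshold under each alternative run, and for the differences that follow the cause was not tested. The count of members past the threshold from 2 to 7 weeks, 1 with TMM (*Atp1b1*, higher), was 1 with upper-quartile scaling (*Atp1b2*, lower), 5 with total counts (*Atp1b2*, *Atp1b3*, *Atp1b4*, *Fxyd1* and *Fxyd5*, all lower, beside 948 higher and 5391 lower of all 19276 genes), 3 with the GC trend removed or with only the 8 libraries compared, 2 with DESeq2 or the length trend removed, and 0 with at least 10 counts in every library (3 at unadjusted p under 0.05), with a fold change beyond 1 on the log2 scale required (0 at unadjusted p under 0.05) or without 2-week replicates 1 and 4 (2 at unadjusted p under 0.05). Leaving out 1 library each gave 0 to 1. In that interval, over all 19276 genes, TMM called 5295, upper-quartile scaling 5188, the GC setting 6230, DESeq2 6098 and the length setting 5525. The 8 libraries called 6171 of 16913 genes, and at least 10 counts 4415 of 14582. The fold change limit called 561 of 19276, and the fit without 2-week replicates 1 and 4 called 2285 of 20740. Single removals called from 3472 of 19871 to 6146 of 19556.

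With a replicate block the count was 0, beside 5148 of all 19276 genes (3 members at unadjusted p under 0.05). There *Atp1b1* had a log2 change of 0.80 (edgeR with Benjamini-Hochberg adjusted p = 0.0623). Same-numbered libraries correlated at r from -0.142 to 0.284 and 2 of 12 pairs were over 0.1, so the numbers were not taken to pair the samples.

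The log2 change of *Fxyd5* from E18.5 to 2 weeks was -0.59 with total counts, -0.24 with the GC trend removed and -0.03 with the length trend removed. From E18.5 to 7 weeks it was -1.24, -0.43 and -0.27 under the same settings, -0.20 with upper-quartile scaling, -0.01 with DESeq2 size factors or DESeq2, -0.02 without a filter, -0.12 with at least 10 counts, -0.05 with 8 libraries and -0.02 to 0.21 over removals. *Fxyd6* was at -0.13, -0.26 and -0.39 with total counts over the 3 comparisons, and from 2 to 7 weeks at -0.003 with upper-quartile scaling and -0.11 to 0.26 over removals. Taken from the median of all genes with total counts, *Fxyd5* was at 0.43, -0.26 and 0.12 over the 3 comparisons. *Fxyd6* was at 0.89, 0.12 and 0.97 on that measure. The change before minus after 2 weeks was -0.48, -0.47 and -0.57 for *Atp1b3* with total counts, GC and length trends removed (-0.03 to 0.20 over removals) and -0.04 for *Fxyd5* with the GC trend removed. Mean log2 CPM with total counts differed by -0.60 (early) and -1.21 (whole span) for *Fxyd5* and by -0.10, -0.29 and -0.39 for *Fxyd6*.

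With shares of raw counts, not per kb, the changes in percentage points were 51.3 for *Atp1b1* over the whole span, 45.0 (early) and 30.6 (whole span) for *Atp1b2*, -77.9 and -82.7 for *Atp1b4*, and 30.95 and 28.35 for *Fxyd1*. With the length of the canonical transcript *Fxyd1* gave 21.1 and 19.8. With *Atp1b4* left out of the sum, *Atp1b1* gave 24.1 and 44.2, and *Atp1b2* 19.5 and 3.604. Canonical lengths and that omission were chosen after the data were seen.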
